A study of Mus musculus with 18 samples.

Results

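The 10 genes described here encode heat shock chaperones of the cytosol and the mitochondrion in 2 mouse lung cancer cell lines in which DSTYK, a dual serine/threonine and tyrosine protein kinase, was altered. They were chosen by symbol, Hspa1a, Hspa1b, Hspa8, Hsph1, Dnajb1, Hspb1, Hsp90aa1, Hsp90ab1, Hspd1 and Hspe1, out of 36047 annotated genes, and all 10 were listed in every library. The estimated counts of a gene's transcripts were added up, and levels are given as CPM, counts scaled to library size with the trimmed mean of M values over all 18 libraries. Where levels of different genes are compared, TPM, which also divides by transcript length, is used instead.

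RNA of cultured cells was sequenced in 18 libraries, 3 for each of 6 groups. In the LLC line, labelled lung adenocarcinoma and of strain C57BL/6, cells with the construct sh3 in the TPLKO vector were set against cells with the empty TPLKO vector, and both groups were given doxycycline. In the UN-SCC679 line, labelled lung squamous carcinoma and of strain A/J, the same pair of sh3 and empty TPLKO was made, again with doxycycline in both groups. A further pair in UN-SCC679 carried OE_DSTYKwt, wild-type DSTYK for overexpression, or the empty pLENTI6 vector, and its treatment label is "N.A.". The groups were taken from the sample titles, since a phenotype label such as downregulation also stands on the empty-vector libraries. Nothing in the labels says that the 3 libraries of a group came from separate cultures, so a p-value here reflects how far these libraries scatter, and that scatter may be technical.

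Dstyk itself averaged 23.2 ± 0.789 CPM in LLC sh3 and 43.2 ± 2.14 CPM in LLC empty TPLKO, 26.3 ± 0.871 CPM in UN-SCC679 sh3 and 37.1 ± 1.03 CPM in UN-SCC679 empty TPLKO, and 37.2 ± 0.696 CPM in UN-SCC679 OE_DSTYKwt and 30.5 ± 1.46 CPM in empty pLENTI6 (SD, n = 3 each), and each pair moved in the direction of its title (log2 fold changes -0.89 in LLC sh3, -0.50 in UN-SCC679 sh3 and 0.29 in OE_DSTYKwt, all called by edgeR). The libraries held between 40525385 and 46528071 estimated counts. The first library of empty pLENTI6 stood further from its 2 partners than any other library did from its own, with a mean chi-square per gene of 11.2 and 12.7 against at most 4.82 for other pairs. Summed squamous markers reached 235 to 285 CPM in UN-SCC679 and at most 0.177 CPM in LLC, with Krt5 and Dsg3 under 3 counts in most groups of UN-SCC679. In LLC, labelled adenocarcinoma, alveolar and club cell markers summed to at most 1.20 CPM, with 36.2 to 57.8 CPM in UN-SCC679. Only 1 of these 6 markers reached a mean of 1 CPM in each UN-SCC679 group, so that difference rests mainly on 1 gene. Summed leukocyte markers stayed at or under 4.64 CPM and endothelial markers at or under 2.13 CPM. Epithelial markers summed to 358 to 379 CPM in UN-SCC679 sh3 and 568 to 594 CPM in its empty TPLKO vector. They summed to 735 to 761 CPM in OE_DSTYKwt and 884 to 949 CPM in empty pLENTI6, while LLC libraries lay between 33.7 and 38.2 CPM. Only 2 of these 5 markers reached a mean of 1 CPM in each UN-SCC679 group, and 1 in each LLC group. Cdh1, Krt19 and Epcam were under 3 counts in UN-SCC679 empty TPLKO. Fibroblast markers summed to 9911 to 10220 CPM in UN-SCC679 sh3 and 12290 to 12680 CPM in its empty TPLKO vector, 4295 to 4329 CPM in OE_DSTYKwt and 4175 to 4346 CPM in empty pLENTI6, and 56.4 to 57.4 CPM in LLC sh3 and 37.4 to 40.5 CPM in LLC empty TPLKO. The part of these marker shifts in the chaperone values below was not tested, and in bulk RNA fewer cells of a type and less RNA per cell cannot be told apart.

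Chaperones bind unfolded or partly folded proteins and let them fold, be transported or be degraded. In the cytosol, J proteins such as Dnajb1 bring clients to Hsp70, exchange factors such as Hsph1 release them, and Hsp90 takes over many kinases and steroid receptors for their last folding steps, while Hspd1 and Hspe1 form the folding chamber of the mitochondrion. Several of these genes are induced by heat shock factor 1 (Hsf1), which binds repeated GAA units called heat shock elements, and tumour cells often carry high chaperone levels.

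The chaperones moved differently in the 2 lines. In LLC sh3 cells, Hspa8, Hsp90ab1, Dnajb1 and Hsph1 fell and Hspe1 and Hspd1 rose relative to the empty vector, which is 6 of the 8 members tested, Hspd1 turning lower when each chromosome's median was removed. A call here is a Benjamini-Hochberg adjusted p under 0.05 over all tested genes in edgeR's quasi-likelihood test, and 72.6% of all genes tested passed it in that comparison, 36.2% higher and 36.4% lower, so the members' share lay near that of all genes. In UN-SCC679 sh3 cells 7 of 9 tested members fell, Hspb1, Hsph1, Hsp90aa1, Hspe1, Hspd1, Hspa8 and Dnajb1, and Hsp90ab1 rose (lower with chromosome medians removed), against 32.0% of all genes called lower, 31.8% called higher and 63.8% called either way. In OE_DSTYKwt cells Hspb1, Hsph1, Hsp90ab1 and Hsp90aa1 fell, 4 of 9 tested members, where 15.2% of all genes were called lower, 14.6% higher and 29.7% either way, and no member rose by this test (0 of 9, with 0 at an unadjusted p under 0.05 and 0 by DESeq2). Without the first empty pLENTI6 library 1 of 9, Hspd1, rose.

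The median log2 fold change of the tested members was -0.23 in LLC sh3, with 0.01 for all genes. It was -0.34 in UN-SCC679 sh3, with 0.01 for all genes, and -0.07 in OE_DSTYKwt, with 0.00 for all genes. The median size of a called log2 fold change was 0.26 for members and 0.42 for all genes in LLC sh3, 0.37 and 0.34 in UN-SCC679 sh3, and 0.11 and 0.22 in OE_DSTYKwt. The 10 genes together took 0.868% of the counts of LLC sh3 and 1.09% of those of LLC empty TPLKO, 0.552% in UN-SCC679 sh3 and 0.610% in its empty TPLKO, and 0.765% in OE_DSTYKwt and 0.792% in empty pLENTI6.

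**Figure D1:**
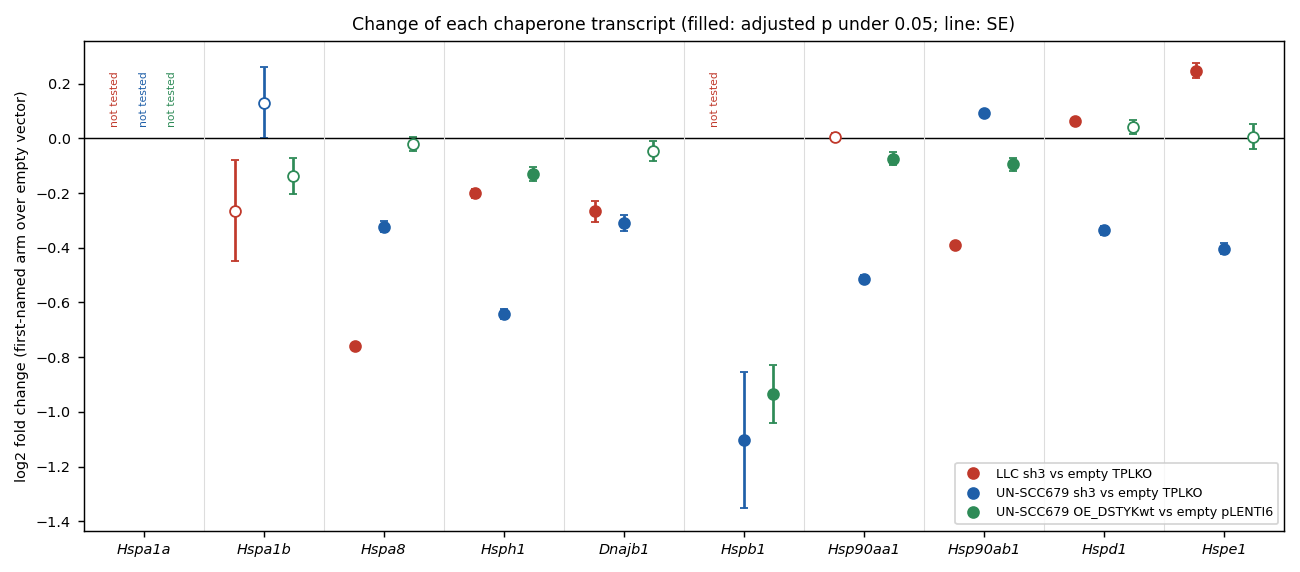
The log2 fold change (vertical axis, bars for the SE) of each tested chaperone gene (horizontal axis) in 3 comparisons. These are LLC sh3 and UN-SCC679 sh3 against empty TPLKO and UN-SCC679 OE_DSTYKwt against empty pLENTI6. Filled points mark an adjusted p under 0.05. Hspe1 and Hspd1 lie above 0 in LLC sh3 and below it in UN-SCC679 sh3, Hsp90ab1 the other way round (Hspd1 in LLC sh3 and Hsp90ab1 in UN-SCC679 sh3 change sign with chromosome medians removed), and the OE_DSTYKwt points stay near 0 apart from Hspb1 at -0.94.

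Hspa8, the constitutive cytosolic Hsp70 (also known as Hsc70), lies at chr9:40800984-40810087 on the plus strand of GRCm38. It was at 1859, 1847 and 1838 CPM in LLC sh3, against 3107, 3164 and 3131 CPM in LLC empty TPLKO. All 3 sh3 libraries lay far below all 3 empty-vector libraries. The log2 fold change was -0.76 ± 0.0104 (SE; 1.69-fold lower, adjusted p = 1.93e-14 by edgeR's quasi-likelihood test), the largest in size among the members in LLC. Per length, Hspa8 averaged 2067 TPM in LLC sh3 and 3514 TPM in LLC empty TPLKO, while Hsp90ab1 averaged 2466 TPM in LLC sh3 and 3267 TPM in LLC empty TPLKO, so that the order of these most abundant members differed between the groups. That order rests on short non-coding entries of Hspa8: for the coding transcripts alone, Hspa8-202 averaged 1329 TPM in LLC sh3 and 2279 TPM in LLC empty TPLKO, and Hsp90ab1-201 averaged 2443 TPM in LLC sh3 and 3237 TPM in LLC empty TPLKO, the higher of the pair in both groups.

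In UN-SCC679 sh3, Hspa8 was at 912, 924 and 915 CPM, against 1129.7, 1126 and 1185 CPM in empty TPLKO. The groups again did not overlap, and the fall was smaller, at -0.32 ± 0.0196 on the log2 scale (adjusted p = 4.50e-08, edgeR). In OE_DSTYKwt it was at 1509, 1494 and 1473 CPM, against 1544, 1496 and 1504 CPM in empty pLENTI6, ranges that overlapped, with a log2 fold change of -0.02 (adjusted p = 0.571, edgeR).

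The level of Hspa8 in UN-SCC679 depends on how reads were shared with Gm15459, a processed pseudogene of Hspa8 at chr5:5781615-5783555 on the minus strand. Along the 1884 coding bases of transcript Hspa8-202 the pseudogene has 4 substitutions and 0 missing bases, and 1438 of the 1945 windows of 75 bases in that transcript, the read length, also occur in Gm15459. The stretches of 41 bases around the 4 differences are shown because they are the coding positions at which a read could tell the copies apart. They were read from GRCm38 with GENCODE M21 transcripts, 5′ to 3′ along each transcript, with the differing base in capitals.
Hspa8 site 1 (chr9:40802016-40802056, plus strand): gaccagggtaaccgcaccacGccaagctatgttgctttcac
Gm15459 site 1 (chr5:5783422-5783462, minus strand): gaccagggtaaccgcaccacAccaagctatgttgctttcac
Hspa8 site 2 (chr9:40802851-40802891, plus strand): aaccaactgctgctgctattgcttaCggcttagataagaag
Gm15459 site 2 (chr5:5782992-5783032, minus strand): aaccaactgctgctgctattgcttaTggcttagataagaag
Hspa8 site 3 (chr9:40803821-40803861, plus strand): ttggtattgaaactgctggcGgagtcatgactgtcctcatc
Gm15459 site 3 (chr5:5782314-5782354, minus strand): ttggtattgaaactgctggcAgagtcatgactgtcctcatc
Hspa8 site 4 (chr9:40804261-40804301, plus strand): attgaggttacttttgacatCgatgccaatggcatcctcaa
Gm15459 site 4 (chr5:5782096-5782136, minus strand): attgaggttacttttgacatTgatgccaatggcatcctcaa

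The pseudogene's counts differed between the lines far more than those of any chaperone. Gm15459 averaged 0.605 CPM in LLC sh3 and 0.995 CPM in LLC empty TPLKO. In UN-SCC679 it averaged 1895 ± 24.1 CPM in sh3, 2369 ± 52.3 CPM in empty TPLKO, 2160.5 ± 26.2 CPM in OE_DSTYKwt and 2130.1 ± 16.1 CPM in empty pLENTI6 (SD, n = 3 each). In all 4 UN-SCC679 groups more counts were listed for the pseudogene than for Hspa8. Which of the 2 loci the reads came from, and which bases the A/J line carries at these sites, was not tested.

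Gm15459 fell in UN-SCC679 sh3 by 0.32 on the log2 scale (SE 0.0172, adjusted p = 1.46e-08, edgeR), the same size as Hspa8, and was at 0.02 in OE_DSTYKwt (adjusted p = 0.549). Hspa8 and its pseudogenes were therefore also summed, a choice made after the data were seen. The sum averaged 1850.3 ± 9.96 CPM in LLC sh3 and 3138 ± 29.6 CPM in LLC empty TPLKO, 2816 ± 20.0 CPM in UN-SCC679 sh3 and 3521 ± 64.4 CPM in its empty TPLKO, and 3661 ± 34.1 CPM in OE_DSTYKwt and 3654 ± 19.4 CPM in empty pLENTI6. The log2 fold changes of the sum, -0.76 in LLC sh3, -0.32 in UN-SCC679 sh3 and 0.00 in OE_DSTYKwt, were close to those of Hspa8 alone. The difference between the unaltered lines was not: LLC empty TPLKO was above UN-SCC679 empty TPLKO by 1.44 on the log2 scale for Hspa8 as listed and below it for the sum, at -0.18 (adjusted p = 3.35e-07, edgeR).

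**Figure D2:**
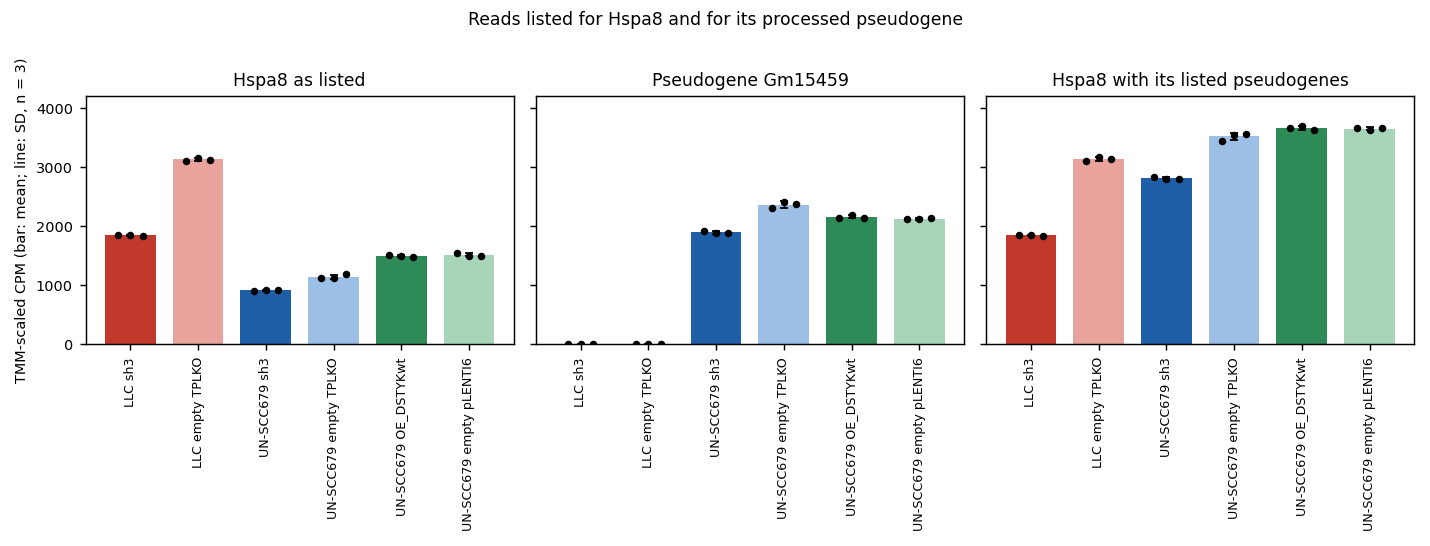
CPM in each of the 18 libraries for Hspa8 as listed, for its processed pseudogene Gm15459 and for the sum of Hspa8 and its pseudogenes, as points over bars for each group's mean, with error bars for the SD (n = 3). Gm15459 is near 0 in LLC and between 1878 and 2417 CPM in UN-SCC679, and the sums of the 4 groups other than both sh3 groups lie between 3110.2 and 3694 CPM.

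Hspa1a and Hspa1b, the stress-inducible Hsp70 genes, were the least abundant with Hspb1. Hspa1a had 0 to 9 counts per library, at most 0.0820 TPM as a group mean, and passed the filter on low counts in no comparison. Hspa1b was at 1.57, 1.70 and 2.04 CPM in LLC sh3, against 2.41, 2.07 and 1.91 CPM in LLC empty TPLKO, ranges that overlapped (log2 fold change -0.26 ± 0.185, adjusted p = 0.219, edgeR). In UN-SCC679 it averaged 4.04 ± 0.166 CPM in sh3 and 3.69 ± 0.517 CPM in empty TPLKO, and 7.14 ± 0.405 CPM in OE_DSTYKwt and 7.85 ± 0.257 CPM in empty pLENTI6, and neither difference passed the test (log2 fold change 0.13 in sh3 and -0.14 in OE_DSTYKwt). In this line every library of the OE_DSTYKwt and empty pLENTI6 groups lay above every library with a TPLKO vector.

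The genes lie beside each other on the minus strand of chromosome 17, Hspa1a at chr17:34969190-34972156 and Hspa1b at chr17:34956436-34959238, and share 1524 windows of 75 bases in their main transcripts, so reads from the shared part could be assigned to either. Their 250 bases before the start, from RefSeq on GRCm38.p6, are shown because they were the same at 247 positions while the counts listed differed. Capitals mark the 3 differing bases.
Hspa1a (chr17:34972157-34972406, minus strand): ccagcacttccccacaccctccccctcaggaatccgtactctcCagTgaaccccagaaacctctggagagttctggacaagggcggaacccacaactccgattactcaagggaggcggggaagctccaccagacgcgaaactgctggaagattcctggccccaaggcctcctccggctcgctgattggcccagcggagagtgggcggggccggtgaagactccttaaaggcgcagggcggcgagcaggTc
Hspa1b (chr17:34959239-34959488, minus strand): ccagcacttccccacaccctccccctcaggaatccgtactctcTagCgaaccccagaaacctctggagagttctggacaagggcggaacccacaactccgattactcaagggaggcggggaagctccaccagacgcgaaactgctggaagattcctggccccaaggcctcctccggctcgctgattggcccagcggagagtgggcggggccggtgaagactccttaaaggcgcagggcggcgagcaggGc

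Hsph1 encodes Hsp110, the nucleotide exchange factor of Hsp70, at chr5:149614287-149636376 on the minus strand, and fell in all 3 comparisons. It was at 253, 252 and 245 CPM in UN-SCC679 sh3, against 391.7, 388 and 389.5 CPM in empty TPLKO. The sh3 libraries lay well below every empty-vector library (log2 fold change -0.64 ± 0.0192, 1.56-fold lower, adjusted p = 1.06e-10, edgeR). Without near-identical copies among the annotated pseudogenes, its counts do not share that uncertainty with Hspa8.

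The fall of Hsph1 was smaller elsewhere. It was at 243, 244 and 241.5 CPM in LLC sh3, against 282, 280.1 and 278 CPM in LLC empty TPLKO, with no overlap (log2 fold change -0.20 ± 0.0157, adjusted p = 9.62e-08, edgeR). In OE_DSTYKwt it was at 354, 347 and 342 CPM, against 376, 380.3 and 385 CPM in empty pLENTI6, again with no overlap (log2 fold change -0.13 ± 0.0252, adjusted p = 0.00407, edgeR). The ratio of its highest to its lowest group mean was 1.60, the narrowest range among the 9 members above the filter.

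Dnajb1, the J protein (Hsp40) that delivers clients to Hsp70, lies at chr8:83608193-83612653 on the plus strand. It was at 31.4, 33.4 and 32.1 CPM in LLC sh3, against 37.8, 40.5 and 38.8 CPM in LLC empty TPLKO (log2 fold change -0.27 ± 0.0389, adjusted p = 3.88e-05, edgeR). In UN-SCC679 sh3 it was at 53.9, 52.6 and 52.9 CPM, against 65.2, 64.8 and 67.4 CPM in empty TPLKO (log2 fold change -0.31 ± 0.0288, adjusted p = 1.84e-06, edgeR). The sh3 libraries lay below their empty-vector libraries in both lines, and the 2 effects differed by 0.04 ± 0.0488 on the log2 scale, which did not pass the test (adjusted p = 0.522, edgeR). The median gene on chromosome 8 was at -0.19 in UN-SCC679 sh3, and with each chromosome's median removed Dnajb1 was at -0.12 there. In OE_DSTYKwt it averaged 70.2 ± 1.06 CPM, and in empty pLENTI6 72.4 ± 3.34 CPM (adjusted p = 0.385, edgeR), and with chromosome medians removed it was called at -0.12.

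Hspb1, the small heat shock protein Hsp27 (Hsp25 in mouse), which holds unfolding proteins without using ATP, lies at chr5:135887919-135889563 on the plus strand. Its level was low and its fold changes were the largest in UN-SCC679. It was at 0.924, 0.585 and 0.685 CPM in sh3, against 1.502, 1.69 and 1.54 CPM in empty TPLKO, with no overlap (log2 fold change -1.10 ± 0.249, 2.15-fold lower, adjusted p = 0.00214, edgeR). In OE_DSTYKwt it was at 2.13, 2.21 and 1.98 CPM, against 4.42, 3.84 and 3.84 CPM in empty pLENTI6 (log2 fold change -0.94 ± 0.107, 1.91-fold lower, adjusted p = 0.000189, edgeR). The small heat shock protein thus fell in both altered states of this line, and the difference between the 2 effects, -0.17, did not pass the test (adjusted p = 0.577, edgeR). In LLC it had 11, 12 and 0 counts in sh3 and 2, 0 and 6 counts in empty TPLKO and was not tested there.

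**Figure D3:**
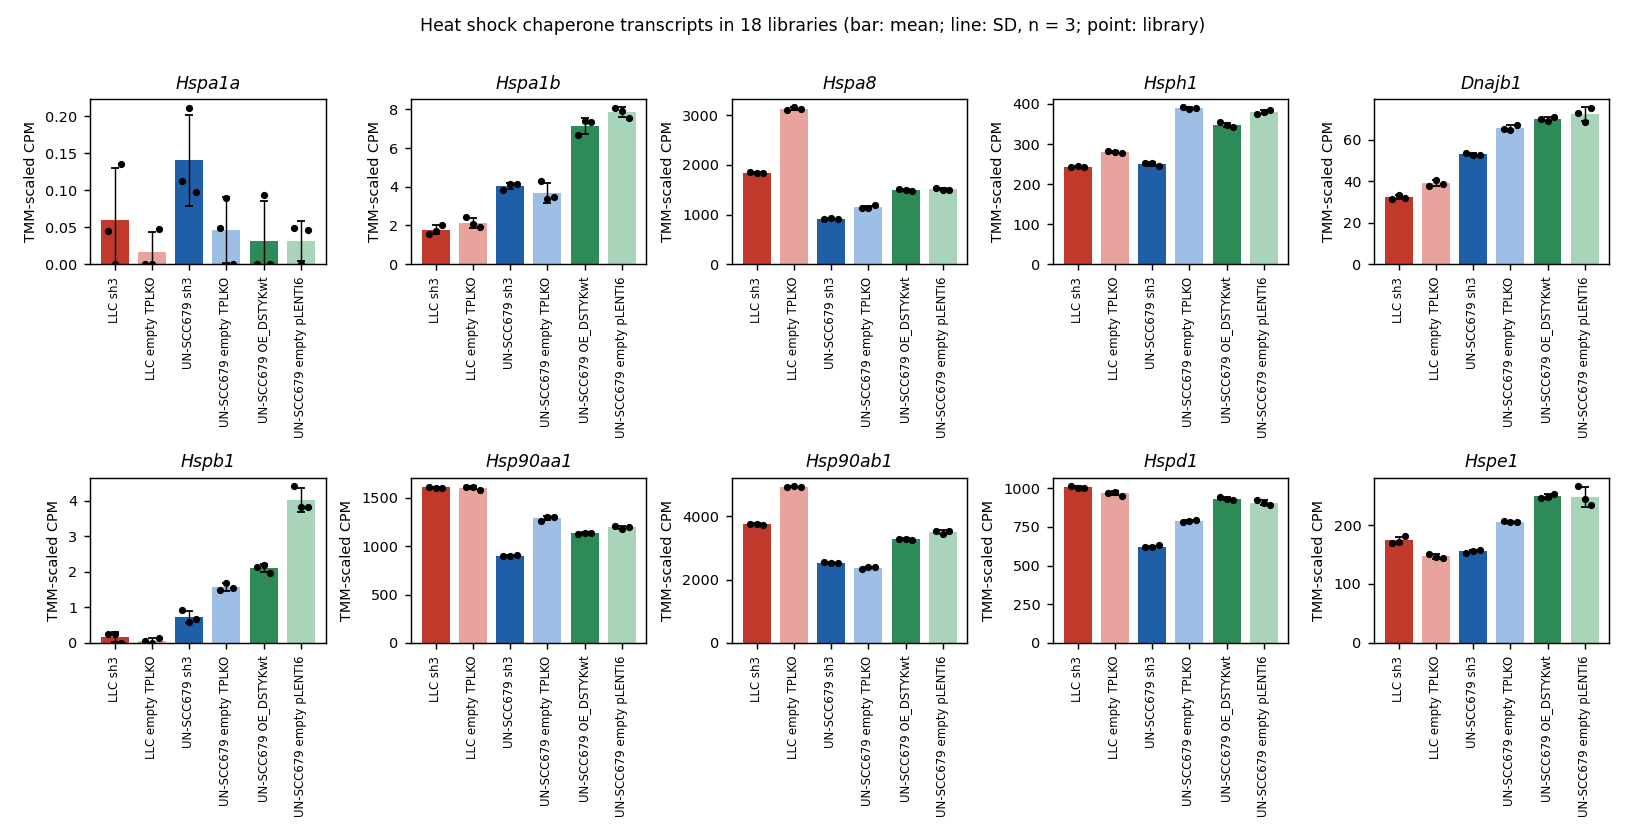
CPM of the 10 chaperone genes, 1 panel a gene with its own linear axis from 0, in each of the 18 libraries, as points over bars for the 6 group means, with error bars for the SD (n = 3). Libraries of a group lie close together for the abundant genes, Hspa8 is highest in LLC empty TPLKO at 3107 to 3164 CPM, and Hspb1 is highest in empty pLENTI6 at 3.84 to 4.42 CPM.

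The cytosolic Hsp90 genes parted. Hsp90aa1, the inducible isoform at chr12:110690605-110702728 on the minus strand, was at 895, 900.5 and 909.5 CPM in UN-SCC679 sh3, against 1264, 1299 and 1300.0 CPM in empty TPLKO. The sh3 libraries lay below all empty-vector libraries, with a log2 fold change of -0.51 ± 0.0160 (1.43-fold lower, adjusted p = 1.43e-10, edgeR). Of the 2778 windows of 75 bases in its main transcript, 1391 also occur in the pseudogene Gm12346. Gm12346 averaged 43.7 CPM in UN-SCC679 sh3 and 71.9 CPM in its empty TPLKO (log2 fold change -0.72). In LLC it averaged 1.41 CPM in sh3 and 1.56 CPM in empty TPLKO. Hsp90aa1 summed with its pseudogenes averaged 946 CPM in UN-SCC679 sh3 and 1361 CPM in its empty TPLKO. In LLC Hsp90aa1 was at 1614, 1604 and 1604 CPM in sh3, against 1612, 1616 and 1586 CPM in empty TPLKO, ranges that overlapped, with a log2 fold change of 0.01 ± 0.0116 (adjusted p = 0.625, edgeR). With each chromosome's median removed it was called lower in LLC sh3, at -0.0426. With library size alone in place of the trimmed mean it was called higher, at 0.0356.

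Hsp90ab1, the constitutive isoform at chr17:45567775-45573271 on the minus strand, fell in LLC. It was at 3771, 3758 and 3718 CPM in LLC sh3, against 4929.6, 4951 and 4913 CPM in LLC empty TPLKO, with no overlap (log2 fold change -0.39 ± 0.00908, 1.31-fold lower, adjusted p = 1.13e-12, edgeR). In UN-SCC679 it was at 2562, 2509 and 2536 CPM in sh3, against 2349.5, 2386 and 2402 CPM in empty TPLKO, with no overlap, and it rose by 0.09 ± 0.0135 on the log2 scale (adjusted p = 9.18e-05, edgeR). Genes on chromosome 17 had a median of 0.25 there, and once chromosome medians were subtracted Hsp90ab1 was at -0.16, lower like Hsp90aa1.

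In OE_DSTYKwt both Hsp90 genes were slightly lower. Hsp90ab1 was at 3281, 3298 and 3260.3 CPM in OE_DSTYKwt, against 3548, 3440.5 and 3522 CPM in empty pLENTI6 (log2 fold change -0.10 ± 0.0236, adjusted p = 0.0138, edgeR). Hsp90aa1 was at 1122, 1139.5 and 1141 CPM, against 1206.5, 1182 and 1194 CPM in empty pLENTI6 (log2 fold change -0.07 ± 0.0245, adjusted p = 0.0470, edgeR). The groups did not overlap for either gene, but both calls lay near the threshold: Hsp90ab1 missed it without the second or the third OE_DSTYKwt library and with chromosome medians removed, and Hsp90aa1 missed it without any 1 library but the first of empty pLENTI6.

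Hspd1 and Hspe1, the mitochondrial chaperonin Hsp60 and its lid Hsp10, start beside each other on opposite strands of chromosome 1, at chr1:55077835-55088243 (minus) and chr1:55088132-55091307 (plus). Their annotated starts overlap, and whether strand was used in counting is not given in the sources used here, so reads of the overlap are uncertain. Each 300-base window around a start, 250 bases before to 50 after (RefSeq, GRCm38.p6), was searched for heat shock elements, either strand: 2 facing units, GAANNTTC or TTCNNGAA, or 3 alternating units, GAANNTTCNNGAA or TTCNNGAANNTTC. The 3-unit motif, which overlaps the 2-unit one, occurred in 0.603% of all 32851 windows and in those of Hspd1, Hspe1 and Hsph1. The 2-unit motif occurred in 15.1% of windows and in 6 of the 7 members with an entry, Dnajb1 being the exception; Hspa8, Hsp90aa1 and Hsp90ab1 had no entry. The sites are shown 5′ to 3′ along the gene with the motif in capitals, because Hspd1 and Hspe1 share the same 18 bases. The 3-unit match of Hsph1 lay after the start, at 36 to 48 bases from it, or 15 to 27 from the gene's other listed start. The other sites shown lay before the start. A match is a description of letters and not of binding.
Hspd1 (chr1:55088053-55088082, minus strand): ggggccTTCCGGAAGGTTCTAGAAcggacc
Hspe1 (chr1:55088053-55088082, plus strand): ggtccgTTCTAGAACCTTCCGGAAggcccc
Hsph1, 2 units (chr5:149636351-149636380, minus strand): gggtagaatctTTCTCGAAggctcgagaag
Hsph1, 3 units (chr5:149636287-149636316, minus strand): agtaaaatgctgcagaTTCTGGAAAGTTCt
Hspb1, first (chr5:135887791-135887820, plus strand): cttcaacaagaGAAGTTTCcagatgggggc
Hspb1, second (chr5:135887811-135887840, plus strand): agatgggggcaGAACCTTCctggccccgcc
Hspa1a (chr17:34972242-34972271, minus strand): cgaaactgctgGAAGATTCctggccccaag
Hspa1b (chr17:34959324-34959353, minus strand): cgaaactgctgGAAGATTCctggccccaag

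The chaperonin pair was higher in LLC sh3 and lower in UN-SCC679 sh3, Hspd1 in LLC sh3 only without removing chromosome medians. Hspe1 was at 169, 171 and 181 CPM in LLC sh3, against 151, 146 and 143.5 CPM in LLC empty TPLKO, with no overlap (log2 fold change 0.25 ± 0.0279, 1.19-fold higher, adjusted p = 3.57e-06, edgeR). Hspd1 was at 1013, 1003 and 1002 CPM in LLC sh3, against 972, 977 and 952 CPM in LLC empty TPLKO, also with no overlap but with a smaller rise (log2 fold change 0.06 ± 0.0135, adjusted p = 0.00112, edgeR). The median gene on chromosome 1 was at 0.14 in LLC sh3, and with each chromosome's median removed Hspd1 was at -0.08 and Hspe1 at 0.11.

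In UN-SCC679 sh3, Hspe1 was at 153, 157 and 157 CPM, against 207, 205 and 205 CPM in empty TPLKO, with no overlap (log2 fold change -0.40 ± 0.0202, 1.32-fold lower, adjusted p = 8.59e-09, edgeR). Hspd1 was at 619.1, 619.0 and 629.7 CPM in sh3, against 780.3, 785 and 792 CPM in empty TPLKO, with no overlap (log2 fold change -0.34 ± 0.0158, 1.26-fold lower, adjusted p = 5.03e-09, edgeR). The chaperonin and its lid were thus lower by similar amounts in this line. In OE_DSTYKwt neither passed the test: Hspd1 averaged 932 ± 11.2 CPM in OE_DSTYKwt and 906 ± 15.3 CPM in empty pLENTI6 (adjusted p = 0.266, edgeR), and Hspe1 averaged 249 ± 3.98 CPM in OE_DSTYKwt and 248 ± 16.7 CPM in empty pLENTI6 (adjusted p = 0.935, edgeR).

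The difference between the effects of sh3 in the 2 lines was itself tested, as an interaction term over 12 libraries. Of the 9 tested members, 5 had a higher log2 fold change in LLC than in UN-SCC679 and 2 a lower one, where 28.1% of all genes were called higher, 31.9% lower and 59.9% either way. LLC minus UN-SCC679 came to 0.65 ± 0.0353 for Hspe1 (adjusted p = 1.44e-10, edgeR), 0.52 ± 0.0212 for Hsp90aa1 (4.36e-12), 0.44 ± 0.0232 for Hsph1 (1.05e-10) and 0.39 ± 0.0211 for Hspd1 (1.13e-10). It was -0.49 ± 0.0181 for Hsp90ab1 (adjusted p = 1.43e-12, edgeR) and -0.44 ± 0.0247 for Hspa8 (2.17e-10). Hspa8 fell in both lines and more in LLC, while Hsp90ab1 fell in LLC and was higher in UN-SCC679. With each chromosome's median removed the difference was -0.18 for Hsp90ab1 and 0.24 for Hspd1, both still called, and -0.16, then called, for Dnajb1. With Hspa8 summed with its pseudogenes the difference was -0.39. Hspb1, at 2.49 ± 1.02, passed the filter on low counts only through UN-SCC679. It rests on 0 to 12 counts per LLC library and missed the threshold in 9 of the 12 fits that leave 1 library out.

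Within UN-SCC679 the effect of sh3 was set against that of OE_DSTYKwt in the same way, over 12 libraries. It was lower for 6 of 9 members, Hsph1 (-0.51), Hsp90aa1 (-0.44), Hspe1 (-0.41), Hspd1 (-0.38), Hspa8 (-0.30) and Dnajb1 (-0.26), and higher for 1, Hsp90ab1 (0.19), where 25.8% of all genes were called lower, 26.1% higher and 51.9% either way. With each chromosome's median removed Hsp90ab1 reversed to -0.07 and Dnajb1, at -0.01, no longer passed. The vector and doxycycline differ between these pairs, and the deposited library names call the cells of each pair by a different name. What that name stands for is not given in the labels. None of these differences can be told apart from the direction of the change in Dstyk.

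The unaltered lines differed in every member tested, though Hspb1 passed the filter on low counts only through UN-SCC679. In LLC empty TPLKO, relative to UN-SCC679 empty TPLKO, Hsp90ab1 was higher by 1.04, Hsp90aa1 by 0.30 and Hspd1 by 0.29 on the log2 scale, and Hspa8 as given above, while Hspa1b (-0.80), Dnajb1 (-0.77), Hspe1 (-0.50), Hsph1 (-0.49) and Hspb1 were lower. That is 4 of 9 higher and 5 of 9 lower, where 40.9% of all genes were called higher, 42.0% lower and 82.9% either way, or 3 higher and 6 lower with Hspa8 summed with its pseudogenes. Hspb1 had 8 counts over the 3 LLC empty TPLKO libraries and 199 over those of UN-SCC679. Its place among the lower members was therefore fixed by how it passed the filter. The median gene on chromosome 17 was at 0.55 and that on chromosome 8 at -0.46, and with chromosome medians removed Hsp90ab1 was at 0.48 and Dnajb1 at -0.30. Line and strain cannot be told apart here.

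The 2 empty vectors in UN-SCC679 were also unlike each other, with 68.7% of all genes called, 33.3% higher and 35.4% lower. Relative to empty pLENTI6, empty TPLKO with doxycycline was lower in Hspb1 (-1.37), Hspa1b (-1.11), Hsp90ab1 (-0.58), Hspa8 (-0.42), Hspe1 (-0.29), Hspd1 (-0.23) and Dnajb1 (-0.16), and higher in Hsp90aa1 (0.09). Hsph1, at 0.02, did not pass. The call of Hsp90aa1 was missed with library size alone (0.0535), with no filter (0.0653) and when summed with its pseudogenes (0.0572). For Hspa8 summed with its pseudogenes the difference was -0.07 (adjusted p = 0.0104, edgeR). With each chromosome's median removed, Hsp90ab1 was at -0.24, Dnajb1 at -0.31 and Hsph1, then called, at 0.16. Some of these differences were as large as the effects of sh3 or OE_DSTYKwt. Vector, doxycycline and whatever the different names of the cells stand for cannot be told apart in any level set across the 2 vectors.

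Transcripts were listed differently in the pLENTI6 pair. Hsp90aa1-202 made up 29.6% of the gene's TPM in both OE_DSTYKwt and empty pLENTI6, and 1.41% in UN-SCC679 sh3 and 1.71% in empty TPLKO, with 2.03% in LLC sh3 and 1.70% in LLC empty TPLKO. For Hsph1, transcript Hsph1-211 made up 46.96% in OE_DSTYKwt and 45.6% in empty pLENTI6, and 7.79% in UN-SCC679 sh3 and 8.05% in empty TPLKO. Hspa8-202 made up 98.8% in OE_DSTYKwt and 98.9% in empty pLENTI6, and 47.6% in UN-SCC679 sh3 and 48.9% in empty TPLKO. Within a pair these shares differed little, while between the 2 vectors of the same line they did not resemble each other. An exception within a pair was Dnajb1-202, at 3.47% in LLC sh3 and 25.4% in LLC empty TPLKO. The deposited effective lengths differed by less than 1 base between the libraries. The labels' protocols name single-end as well as paired-end sequencing without saying which libraries had which, and its part in these shares was not tested.

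**Figure D4:**
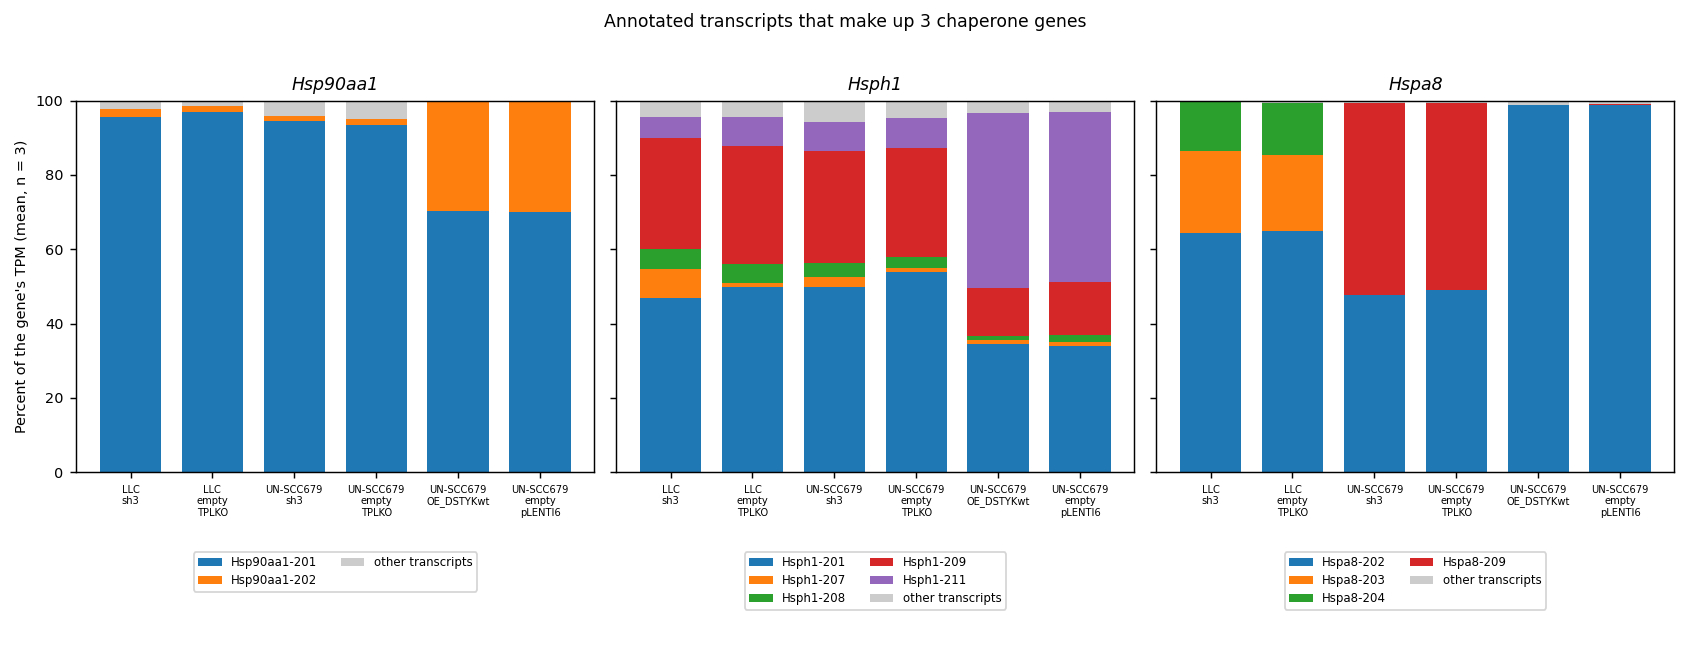
Share of each gene's TPM, in percent, listed for the transcripts of Hsp90aa1, Hsph1 and Hspa8 in the 6 groups, as the mean of 3 libraries. The OE_DSTYKwt and empty pLENTI6 bars resemble each other and differ from the 4 TPLKO bars, as with Hsp90aa1-202 at 29.6% and at most 2.03%.

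The wider chaperone network was read from 7 lists, whose counts stand beside the shares of all genes given above and whose medians stand beside all-gene medians of 0.01 in LLC sh3, 0.01 in UN-SCC679 sh3 and 0.00 in OE_DSTYKwt. The heat shock factors and their regulators were higher in LLC sh3 (4 of 4 tested called higher, median log2 fold change 0.34), lower in UN-SCC679 sh3 (0 higher and 4 lower of 5, median -0.12) and mostly uncalled in OE_DSTYKwt (1 higher and 0 lower of 4, median 0.00). Hsf1 itself was at 0.10 in LLC sh3, -0.12 in UN-SCC679 sh3 and -0.07 in OE_DSTYKwt, the last of which did not pass. Hsf4, another heat shock factor, was at 1.07 in LLC sh3, -0.45 in UN-SCC679 sh3 and 0.37 in OE_DSTYKwt, all called. Of 20 other Hsf1-responsive genes, 9 were higher and 10 lower in LLC sh3 (median -0.06), 4 higher and 14 lower in UN-SCC679 sh3 (median -0.20), and 4 higher and 7 lower in OE_DSTYKwt (median -0.04). Their largest change in OE_DSTYKwt was that of Cryab, the small heat shock protein alpha B crystallin, at 4.85 CPM in OE_DSTYKwt and 1.47 CPM in empty pLENTI6 (3.30-fold higher, adjusted p = 2.85e-06, edgeR), where Hspb1 fell. In UN-SCC679 sh3 Cryab fell like Hspb1 (-0.44), and in LLC sh3 it rose (1.36) at a mean of 0.789 CPM in sh3 and 0.307 CPM in empty TPLKO.

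Among the partners of Hsp70, 11 were higher and 13 lower of 24 in LLC sh3 (median -0.12), 8 higher and 12 lower of 25 in UN-SCC679 sh3 (median -0.05), and 3 higher and 6 lower of 25 in OE_DSTYKwt (median -0.0033). In LLC sh3 the J protein Dnajc7 was at -0.93 and the exchange factor Bag5 at -1.03, with 31.3 CPM in sh3 and 64.3 CPM in empty TPLKO for Bag5. In UN-SCC679 sh3 Hspa4, like Hsph1 an Hsp110, was at -0.47 and the J protein Dnajb4 at 0.81. Among the partners of Hsp90, 9 were higher and 8 lower of 21 in LLC sh3 (median 0.04), 4 higher and 14 lower in UN-SCC679 sh3 (median -0.21), and 2 higher and 5 lower in OE_DSTYKwt (median -0.05). Cacybp, which binds Hsp90 and the ubiquitin ligase Siah1, was at 0.59 in LLC sh3 and Chordc1 at -0.55, while Fkbp4, an immunophilin of steroid receptor complexes, was at -0.38 in UN-SCC679 sh3 and -0.16 in OE_DSTYKwt.

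The cytosolic chaperonin TRiC and its helper prefoldin, which fold actin and tubulin, had 7 higher and 5 lower of 14 in LLC sh3 (median 0.05), 2 higher and 9 lower in UN-SCC679 sh3 (median -0.21) and 1 higher and 5 lower in OE_DSTYKwt (median -0.05). Subunit Cct3 was at -0.31 in LLC sh3 and -0.26 in UN-SCC679 sh3. Of 18 mitochondrial chaperones and proteases, 8 were higher and 6 lower in LLC sh3 (median 0.08), 2 higher and 9 lower in UN-SCC679 sh3 (median -0.11) and 1 higher and 5 lower in OE_DSTYKwt (median -0.05). Hspa9, the mitochondrial Hsp70 upstream of Hspd1, fell in all 3, at -0.17 in LLC sh3, where Hspe1 rose, -0.38 in UN-SCC679 sh3 and -0.13 in OE_DSTYKwt. Atf5, a transcription factor of the mitochondrial stress response, averaged 52.1 CPM in LLC sh3 and 157 CPM in LLC empty TPLKO, and 109 CPM in UN-SCC679 sh3 and 155 CPM in empty TPLKO, and fell in both (log2 fold change -1.58 in LLC sh3 and -0.50 in UN-SCC679 sh3). The genes listed by symbol as other small heat shock proteins and Hsp70s had 6 higher and 2 lower of 9 in LLC sh3 (median 0.32), 6 higher and 3 lower of 10 in UN-SCC679 sh3 (median 0.28) and 1 higher and 1 lower of 10 in OE_DSTYKwt (median 0.03). Hspb11, which is in this list by its symbol alone, counts among the higher genes in LLC sh3 (1.15) and UN-SCC679 sh3 (0.26).

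**Figure D5:**
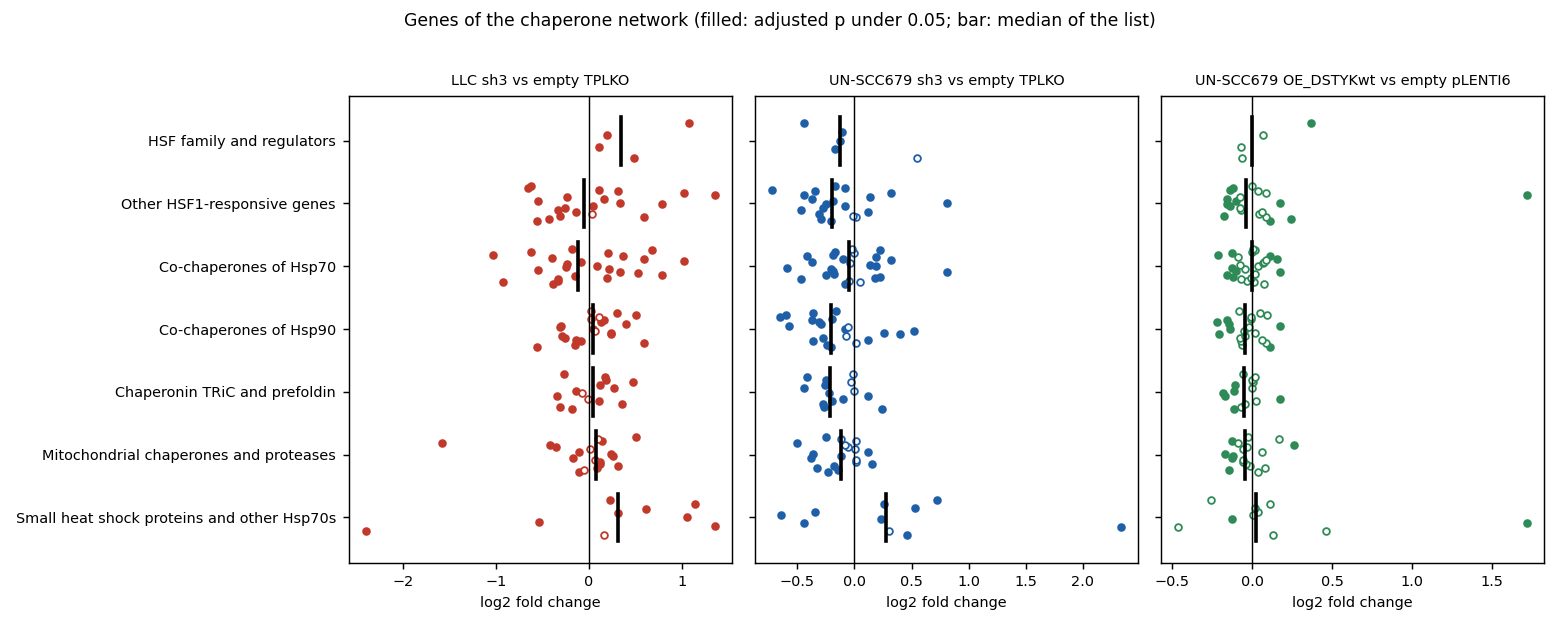
Log2 fold changes of the tested genes of 7 chaperone network lists on the horizontal axis (1 point a gene, line at the list's median) in LLC sh3, UN-SCC679 sh3 and OE_DSTYKwt against their empty vectors. The Hsp90 partners and the TRiC and prefoldin subunits have medians of -0.21 in UN-SCC679 sh3, while in LLC sh3 the medians are 0.04 for the Hsp90 partners and 0.05 for TRiC and prefoldin.

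Over the 18 libraries, the genes with the log2 CPM pattern most like that of Hsph1, among 9636 genes with a curated symbol and a sufficient level, were Cap1, an actin-binding protein (Pearson r = 0.978), Tns1, a focal adhesion protein (0.972), Nup107, a nuclear pore subunit (0.971), Actb, beta-actin (0.971), and Polr1e, an RNA polymerase I subunit (0.964). Among the members, r with Hsph1 was 0.835 for Dnajb1, 0.820 for Hspb1, 0.791 for Hspe1 and 0.680 for Hspa1b, and between -0.375 and 0.0982 for the others. The libraries fall into 6 groups of 3, so these values describe mainly the 6 group means.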

How the data were processed

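Per the labels' protocols, the 18 libraries came from Illumina's TruSeq Stranded mRNA preparation with 75-base reads. The authors deposited estimated counts for each transcript, and the submitters' processing notes name kallisto, sleuth and mm10 without versions. Pseudoalignment splits a read among transcripts it matches, so genes with near-identical copies are uncertain. Besides Hspa8, Hspa1a and Hspa1b, other members share 75-base windows of their main transcript with other genes. The shares were 59.5% for Hsp90aa1, 57.7% for Hspb1, 33.7% for Hspd1 and 29.1% for Hspe1. Transcripts were joined to genes with GENCODE M21 (GRCm38): 116816 of 118489 matched, and those without a gene held 0.515 to 0.593% of counts. Counts were summed per gene and rounded. Each comparison was fitted over its own 6 libraries (12 for interactions) with edgeR 4.0.16 (R 4.3.3; filterByExpr with a minimum of 10 and a total of 15, TMM, quasi-likelihood test, Benjamini-Hochberg over all tested genes), tested on simulated counts first. SE, an approximate standard error, is the size of the log2 fold change divided by the square root of the quasi-likelihood F statistic. Counts of at least 40525385 per library leave the low levels of Hspa1a, Hspa1b and Hspb1 as the least precise values. The alternatives were DESeq2 1.42.0, limma 3.58.1 on log2(TPM + 1), other scalings and filters, chromosome medians removed, a replicate block, 1 fit over all libraries and leaving out each library. The genes named beyond the members were, per network list and comparison, the 2 called genes of lowest adjusted p, plus the 5 nearest to Hsph1 above a log2 CPM of 3 on average. Hsf1 was named after its values were seen. The members, lists and tests were chosen with earlier results of these data known. Some of the lists' genes stand in more than 1 list.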

Additional observations from a re-analysis of the deposited data

Results flagged for a closer look

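For 7 of the 9 chaperones tested the effect of sh3 differed between the lines by the interaction test in edgeR. Of all genes tested, 59.9% were called there too. In each of the 7 the log2 fold change in UN-SCC679 was subtracted from that in LLC. The difference was 0.65 for Hspe1, which rose in LLC sh3 and fell in UN-SCC679 sh3, and 0.39 for Hspd1, with the same directions, except that with each chromosome's median removed Hspd1 was lower in LLC sh3 (-0.0806). It was 0.52 for Hsp90aa1, which fell in UN-SCC679 sh3, and 0.44 for Hsph1, which fell in both lines and more in UN-SCC679. It was -0.49 for Hsp90ab1, which fell in LLC sh3 and rose in UN-SCC679 sh3 (-0.16 there with chromosome medians removed), and -0.44 for Hspa8, which fell in both lines and more in LLC. For Hspb1 it was 2.49, with 0 to 12 counts per LLC library. That call was missed in 9 of the 12 fits that leave 1 library out.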

How the results depend on the processing

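Apart from leaving out libraries, 201 counts of calls stayed within 1.5 times the reported count and 9 did not, and 596 single-gene values kept direction and call, 12 lost the call, 4 gained it and 15 reversed. With 1 library left out, 158 counts stayed and 4 did not, and 458 gene values kept both, 16 lost the call, 2 gained it and 4 reversed. With each chromosome's median removed, members called higher became 1 in LLC sh3, 0 in UN-SCC679 sh3, 2 between the empty vectors and 0 for sh3 minus OE_DSTYKwt, and these values reversed: Hsp90aa1 (-0.0426) and Hspd1 (-0.0806) in LLC sh3, Hspa1b (-0.12) and Hsp90ab1 (-0.16) in UN-SCC679 sh3, Hspd1 (-0.0522) and Hspe1 (-0.0874) in OE_DSTYKwt, and the interactions of Dnajb1 between the sh3 effects in the lines (-0.16) and of Hsp90ab1 between sh3 and OE_DSTYKwt (-0.0676). Removing the median subtracts the shift of all genes on the chromosome. With limma on log2(TPM + 1), 2 members were lower in OE_DSTYKwt and 3 higher between the vectors, and Hspa8 in OE_DSTYKwt (0.00724), Hspa8 between the vectors (0.12) and the sh3 minus OE_DSTYKwt difference of Hspb1 (0.0231) reversed. Between the vectors, library size alone and no filter each left 0 members higher and put Hsph1 at -0.0198 and -0.00805. With members summed with their pseudogenes, an alternative chosen after seeing the data, 0 were higher between the vectors and Hspa8 reversed to 0.00298 in OE_DSTYKwt and -0.18 between the empty TPLKO groups of LLC and UN-SCC679. The cause of these other changes was not tested. With 1 library left out, members higher ranged from 0 to 1 and lower from 2 to 4 in OE_DSTYKwt, members higher from 1 to 2 for sh3 minus OE_DSTYKwt, Hspe1 in OE_DSTYKwt from -0.0366 to 0.0621, and Hsp90aa1 in LLC sh3 from -0.0107 to 0.00715.

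Same-numbered libraries deviated together weakly or not at all (correlations of -0.0367 to 0.0652 over all genes). With 3 libraries a group these values cannot decide whether the numbers pair them, and the labels do not say. With a replicate block, 9925 genes were called for LLC sh3 vs empty TPLKO, 8806 for UN-SCC679 sh3 vs empty TPLKO and 3771 for UN-SCC679 OE_DSTYKwt vs empty pLENTI6, against 9995, 9112 and 4154 without it, and among the members the calls of Hsp90aa1 in OE_DSTYKwt (-0.07) and of the Hspb1 difference between the sh3 effects in LLC and UN-SCC679 (2.47) were missed. Low counts left Hspa1a untested in every comparison and Hspb1 untested in LLC sh3. The part of depth in these low counts, and for Hspa1a that of reads shared with Hspa1b, was not tested.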
